A study of Mus musculus with 8 samples.

Results

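The 8 arrays of this experiment were divided by whether the cells had received the hairpin against Tip60. The 4 Tip60-depleted arrays were those of Tip60 KD and of the double KD of Tip60 and Hdac6. The 4 Tip60-intact arrays were those of control KD and Hdac6 KD. All cells were E14 mouse embryonic stem cells (ESCs), grown without feeder cells on gelatin in serum and LIF, infected with lentivirus that expressed short hairpin RNAs and collected after 72 hours. The control hairpin was directed at EGFP, a reporter with no counterpart in the mouse genome, and every group, control KD included, was therefore an infected one. Each gene was targeted with 1 hairpin, so an effect of losing the target and an effect of the hairpin on other transcripts cannot be told apart. Each group held 2 biological replicates, lettered A and B. Of 18056 genes tested, 17887 had a value on all 8 arrays, and in 3049 of those (17.0%) the 4 depleted arrays did not overlap the 4 intact arrays. Of these separating genes 1534 (8.58%) were higher and 1515 (8.47%) were lower in Tip60-depleted cells.

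Tip60 is a lysine acetyltransferase of histones and other proteins, encoded by Kat5. In ESCs it acts in the Tip60-p400 complex, which also carries the ATPase p400 that exchanges the histone variant H2A.Z into chromatin. The complex is known for keeping developmental genes silent in ESCs while supporting the expression of genes used in proliferation, and Tip60 also acetylates p53 and the checkpoint kinase ATM. Hdac6 is a deacetylase that acts on tubulin in the cytoplasm of most cells, and it was depleted here to ask how far regulation by Tip60 depends on it. The comparison of all depleted with all intact arrays averages the response to the Tip60 hairpin where Hdac6 was present and where it was reduced. A gene could thus be called without a clear response in both.

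Values are log2 of the background-subtracted signal over the 75th percentile of the same array, so that 0 stands for a signal equal to that percentile, and signals below -2.78 were set to that floor. The arrays differed in the background that had been subtracted. Its median was 37.7 to 114.3 intensity units on the intact arrays and 37.2 to 89.0 on the depleted arrays, and 21896 to 40609 of 43020 spots were called well above background. With 1 background for every array, 2855 genes separated, of which 2546 were among the 3049. Each slide carried 1 array of every group, and the position of an array on its slide cannot be told apart from its group. In bulk RNA such as this, fewer cells of a type and less RNA per cell cannot be told apart either.

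The transcript of Kat5, measured at chr19:5603017-5603076 of mouse build mm9 like all probe positions here, was the check of the label. Its log2 signal was 1.25 and 1.30 in control KD, 1.43 and 1.44 in Hdac6 KD, -0.10 and -0.08 in Tip60 KD and -0.19 and 0.12 in double KD. All 4 depleted arrays lay below all 4 intact arrays, by a gap of 1.13. The difference between the means was -1.42 (SE 0.08, n = 4 against 4, limma adjusted p = 0.000498), which left 37.3% of the intact signal, and another Kat5 probe gave -1.65. The loss was -1.37 with Hdac6 present and -1.47 with Hdac6 reduced, with an interaction of -0.10 (limma adjusted p = 0.555).

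Hdac6 itself was the gene on which the design placed its other factor. Its log2 signal was 2.13 and 2.10 in control KD, -0.37 and -0.40 in Hdac6 KD, 1.65 and 1.68 in Tip60 KD and 0.21 and 0.26 in double KD. Both groups with the Hdac6 hairpin lay below both groups without it. Its Tip60 effect averaged 0.08 (SE 0.22, limma adjusted p = 0.805), but the signal in double KD was 0.62 above that in Hdac6 KD, and the interaction was 1.07 (limma adjusted p = 0.00136). Hdac6 was thus less reduced in double KD than in Hdac6 KD, and the arrays called Hdac6-reduced differed in this respect between the depleted and intact sides.

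In the additive model with Tip60 status, Hdac6 status and replicate letter, 4216 genes (23.3% of those tested) passed a limma adjusted p of 0.1, 2127 of them higher (11.8%) and 2089 lower (11.6%) in Tip60-depleted cells. Of the separating genes 2731 were called, 1391 higher and 1340 lower, and 318 were not. A further 1454 genes were called although their arrays overlapped. With the floor set far lower, 2496 genes were called, of which 1593 were higher, so the even split between directions did not hold there, and the median change of all genes moved from 0.03 to 0.15. Leaving out a single array changed the number called most for the 2 groups with Hdac6 present. It was 2244 without control KD A, 2439 without control KD B, 2104 without Tip60 KD A and 2001 without Tip60 KD B, of which 2198, 2371, 2090 and 1984 were among the 4216.

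Most separating genes moved by a modest amount. The median change was 0.48 among those higher and -0.48 among those lower, and the median gap between the nearest arrays of the 2 sides was 0.14 and 0.13. Changes of at least 2-fold were found in 207 separating genes, 144 higher and 63 lower. Gaps of at least 1 log2 unit were nearly all on the higher side, with 50 genes against 2. With the genes placed in 4 equal groups by mean signal, which depends on the probe as well as on the transcript, separating genes in the dimmest group were higher in 7.13% and lower in 1.67% of genes, and in the brightest group they were higher in 6.79% and lower in 12.6%.

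The widest gap of all belonged to Spic, an ETS-family transcription factor known from red pulp macrophages, measured at chr10:88138053-88138112. Its log2 signal was -2.40 and -2.35 in control KD, -2.41 and -2.46 in Hdac6 KD, -0.06 and -0.03 in Tip60 KD and -0.21 and -0.24 in double KD. The 4 intact arrays lay close to the floor and within 0.11 of each other, and the depleted arrays lay 2.11 above the highest of them. The mean rose by 2.27 (SE 0.06, limma adjusted p = 0.000163), or 4.84-fold, with 2.34 where Hdac6 was present and 2.21 where it was reduced.

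Slc11a1, the divalent metal transporter of phagosomes once named Nramp1, stood at -1.5 and -1.67 in control KD, -1.56 and -1.63 in Hdac6 KD, 0.78 and 0.55 in Tip60 KD and 0.34 and 0.13 in double KD. All intact arrays lay in a narrow band and double KD lay between them and Tip60 KD. The rise was 2.04 (SE 0.10, limma adjusted p = 0.000357), larger with Hdac6 present (2.26) than with Hdac6 reduced (1.83). The predicted gene Gm428 rose by 2.11 with a gap of 1.82. Spink1, a secreted inhibitor of trypsin, rose by 1.94 with a gap of 1.5, from between -0.85 and -0.14 on the intact arrays to between 1.35 and 1.54 on the depleted ones. The homeobox gene Vax2, which patterns the ventral retina, and its opposite-strand transcript Vax2os both rose, by 1.86 and 1.62. Platr26, a long noncoding RNA of ESCs, rose by 1.63, and its other probe by 1.67.

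**Figure D1:**
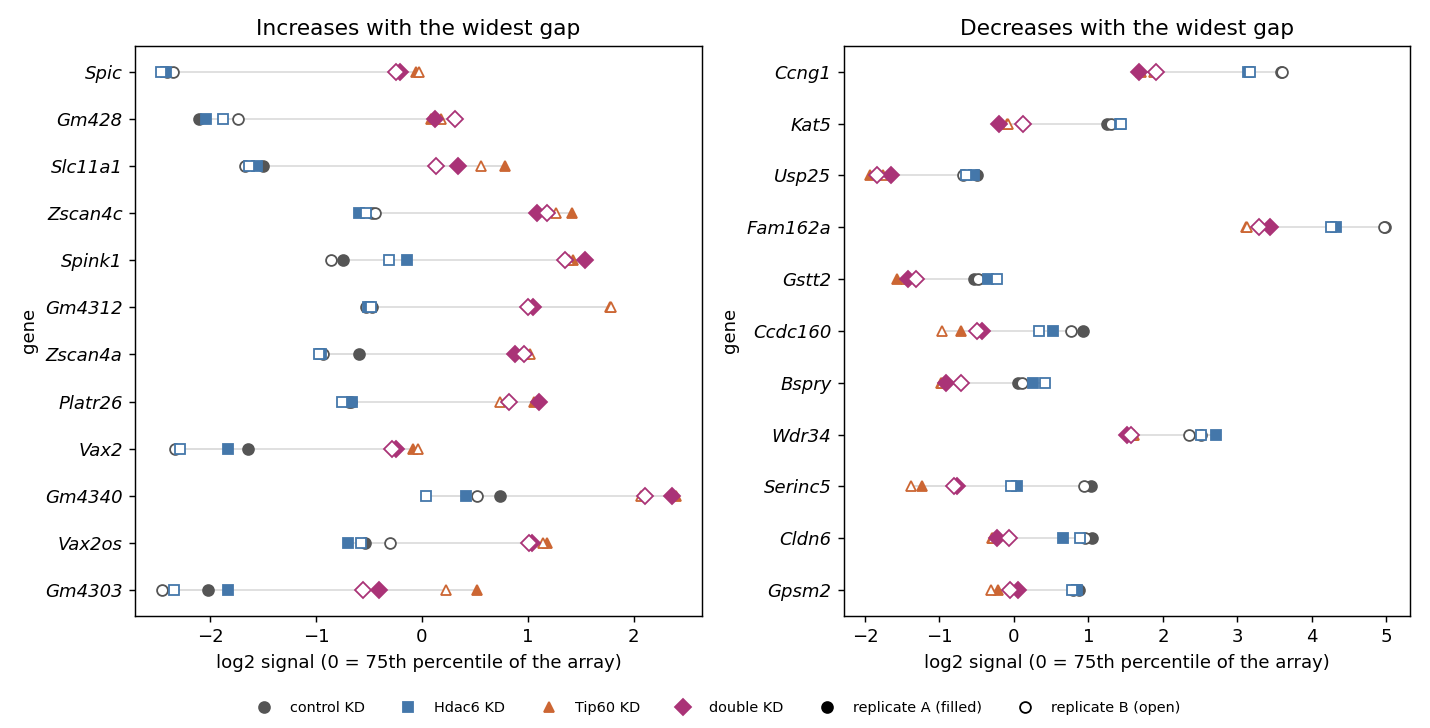
Log2 signal (0 is the 75th percentile of the array) on each of the 8 arrays for the 12 increases and 11 of the 12 decreases with the widest gap among genes above the floor on every array. Each point is 1 array, filled for replicate A and open for replicate B, with a symbol and colour for each group. For Spic the 4 depleted arrays lie 2.11 to the right of the intact arrays, and for Ccng1 they lie 1.23 to the left.

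The 12 widest gaps on the higher side included Zscan4c and Zscan4a, of the Zscan4 cluster on chromosome 7. These zinc finger genes with a SCAN domain mark the 2-cell stage embryo and switch on for short periods in a small share of ESCs, where they take part in telomere maintenance. The windows of 250 bases before the start of Zscan4c (chr7:11005495-11005744, plus strand, build GRCm38.p6) and of Zscan4f (chr7:11397665-11397914, plus strand) are shown because the genes rose together and share this sequence. They come from RefSeq, run 5′ to 3′, and carry TATAAA and CCAAT in capitals.
Zscan4c: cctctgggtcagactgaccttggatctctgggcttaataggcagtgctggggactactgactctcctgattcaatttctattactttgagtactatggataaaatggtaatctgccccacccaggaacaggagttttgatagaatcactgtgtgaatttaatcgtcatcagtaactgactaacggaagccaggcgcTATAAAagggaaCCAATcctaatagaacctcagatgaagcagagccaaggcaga
Zscan4f: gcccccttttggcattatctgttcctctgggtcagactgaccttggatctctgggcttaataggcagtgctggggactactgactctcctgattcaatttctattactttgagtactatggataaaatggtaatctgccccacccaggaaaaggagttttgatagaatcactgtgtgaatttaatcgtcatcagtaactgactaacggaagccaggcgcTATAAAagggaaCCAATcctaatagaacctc

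Of 227 aligned bases of these windows 226 were identical (99.6%), and 4 members of the cluster with a window were 94.7% to 99.6% identical in pairs. TATAAA was present on either strand in 8.19% and CCAAT in 36.6% of the windows of the 11391 genes tested that had one. Zscan4c stood at -0.47 and -0.44 in control KD, -0.60 and -0.53 in Hdac6 KD, 1.41 and 1.27 in Tip60 KD and 1.09 and 1.18 in double KD. No depleted array came within 1.53 of an intact one. Its rise of 1.75 (SE 0.07, limma adjusted p = 0.000242) was nearly the same with Hdac6 (1.80) and with Hdac6 reduced (1.70), and 2 further probes gave 1.47 and 1.43. Zscan4a rose by 1.82 and Zscan4f by 1.63. Whether probes of genes in this cluster tell the transcripts apart was not tested, so their values may not be separate.

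The predicted genes Gm4303, Gm4312 and Gm4340 on chromosome 10 were also among the 12, and the windows of Gm4303 and Gm4312 were 98.0% identical. The probes of Gm4303 (chr10:99803784-99803843) and Gm4312 (chr10:99803961-99804020) lie close together. Whether they tell the transcripts apart was not tested, so these values may not be separate. Gm4312 stood at -0.47 and -0.53 in control KD, -0.51 and -0.48 in Hdac6 KD, 1.77 and 1.78 in Tip60 KD and 1.05 and 1.00 in double KD. The rise was 2.28 with Hdac6 present and 1.52 with Hdac6 reduced, a difference of -0.77 (limma interaction, adjusted p = 0.00211). Gm4303 rose by 2.11 with a difference of the same sign (-1.0), and Gm4340 by 1.80 with one of the opposite sign (0.40, limma adjusted p = 0.0179). Of 18 listed genes of the 2-cell stage, 8 could be tested. Called higher were 3 (37.5%, against 11.8% over all genes), Zscan4c, Zscan4f and Calcoco2. Calcoco2, an adaptor for selective autophagy, rose by 2.19 on 1 probe and 2.28 on the other. The remaining members did not pass: Dux, a homeobox activator of 2-cell stage genes, had a difference of 0.00 and Zfp352 of -0.01 (limma adjusted p = 0.993 and 0.947), and Usp17la of 0.05, with 0.55 and no overlap on its other probe. Arg2 and Pramel6 lay at or near the floor, where the floor limits what can be measured, and differed by 0.12 and 0.14. With the lower floor both were called, at 2.99 and 3.16 (limma adjusted p = 0.0247 and 0.0213), so that 5 members were called higher and the median of the list went from 0.13 to 1.69.

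Among decreases the widest gap was that of Ccng1, cyclin G1, a classical target gene of p53 measured at chr11:40562427-40562486. Its log2 signal was 3.59 and 3.60 in control KD, 3.14 and 3.17 in Hdac6 KD, 1.71 and 1.88 in Tip60 KD and 1.68 and 1.91 in double KD. Every depleted array lay at least 1.23 below every intact one, and the Hdac6 KD arrays lay below control KD. The mean changed by -1.58 (SE 0.11, limma adjusted p = 0.00118), to 33.4% of the intact signal. The change was -1.80 with Hdac6 present and -1.36 with Hdac6 reduced.

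The deubiquitinase Usp25 fell by 1.21 to 43.3% of its intact signal, and another probe gave -1.74. Its arrays lay between -0.68 and -0.50 on the intact side and between -1.94 and -1.65 on the depleted side. Fam162a, a mitochondrial protein induced by hypoxia, stood at 4.98 and 4.96 in control KD, 4.32 and 4.26 in Hdac6 KD, 3.12 and 3.13 in Tip60 KD and 3.44 and 3.29 in double KD. It differed by -1.85 with Hdac6 and by -0.92 with Hdac6 reduced, so that its main effect of -1.39 was an average of 2 unequal changes. The glutathione transferase Gstt2, Bspry and Gpsm2, which orients the mitotic spindle, fell by 1.04, 1.1 and 0.95. The junction protein Cldn6 fell by 1.1 and Wdr34, a subunit of the dynein of cilia, by 0.95.

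Tip60 depletion could be compared on 2 sets of arrays that shared none, Tip60 KD against control KD with Hdac6 present and double KD against Hdac6 KD with Hdac6 reduced. Over all 18056 genes the 2 differences correlated with a Pearson r of 0.33 and a Spearman rho of 0.24 and had the same sign in 56.8%. This is a description across genes, which are not independent and which share the 2 slides. Among separating genes the change was smaller where Hdac6 was reduced. The median was 0.59 with and 0.35 without full Hdac6 for genes that were higher, and -0.62 and -0.31 for genes that were lower.

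The difference of these 2 changes, the interaction, passed a limma adjusted p of 0.1 in 8491 of 18056 genes (47.0%) and in 1682 of the 3049 separating genes (55.2%). In 1532 of the 1682 the change was smaller with Hdac6 reduced and in 150 it was larger. The same split over all 8491 genes was not counted. Of separating genes that were higher, 773 had the call, 674 of them with a smaller change, and of those that were lower, 909 had it, 858 of them with a smaller change. Of the 2731 genes that separated and were called, 2240 were called both with Hdac6 present and with Hdac6 reduced. Separation itself favours a call in both, and the same count over all genes was not made. Over all 18056 genes tested, 10894 were called with Hdac6 present and 5329 with Hdac6 reduced, so fewer calls with Hdac6 reduced were not particular to separating genes. The Hdac6 main effect was called in 920 genes tested (5.10%) and in 84 of the 3049 separating genes. In 59 of the 84 it ran opposite to the Tip60 effect and in 25 the same way. This split was not counted over all 920 genes. A large Hdac6 effect can make the sides overlap, so selection on separation bears on both counts.

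**Figure D2:**
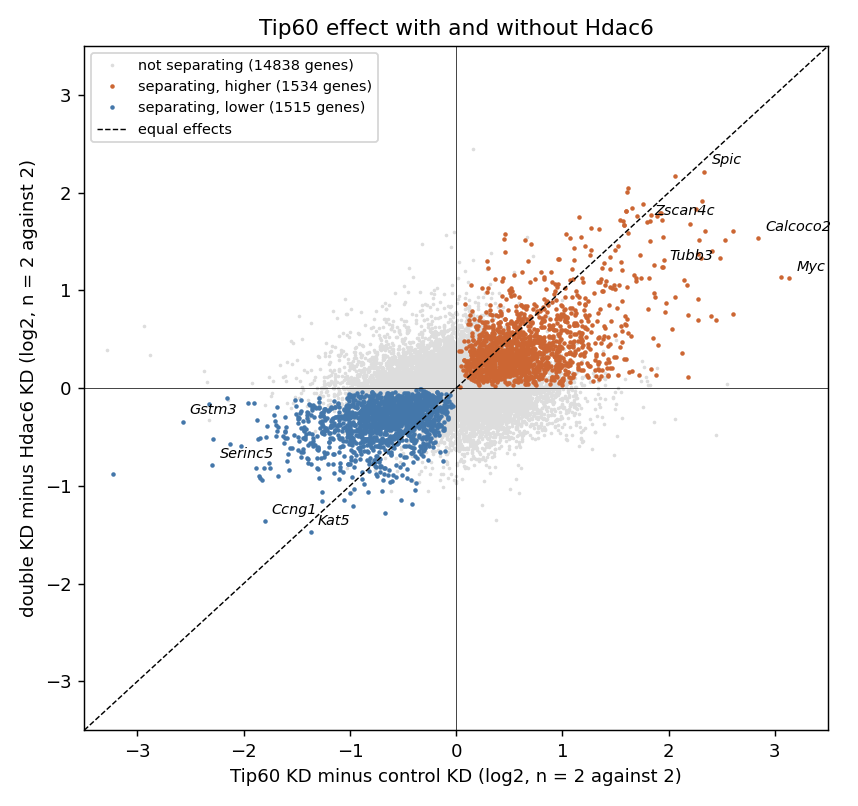
Tip60 KD minus control KD (horizontal axis) against double KD minus Hdac6 KD (vertical axis), both in log2 units, 2 arrays against 2. Each point is a gene, coloured by whether its 4 depleted arrays lay above (1534 genes), below (1515 genes) or among the intact arrays, and the dashed line marks equal changes. Separating genes lie in the 2 quadrants of like sign, which their selection fixes in advance. Their medians were 0.59 on the horizontal and 0.35 on the vertical axis for genes above, and -0.62 and -0.31 for genes below.

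The most unequal separating genes carried their change mainly where Hdac6 was present. Myc, the transcription factor of growth and proliferation, stood at 0.25 and 0.19 in control KD, 2.26 and 2.07 in Hdac6 KD, 3.47 and 3.24 in Tip60 KD and 3.43 and 3.15 in double KD. Control KD alone was low, Hdac6 KD was in between, and the 2 depleted groups were alike. The rise was 3.14 with Hdac6 and 1.12 with Hdac6 reduced, a difference of -2.01 (limma adjusted p = 0.00112), and the main effect was 2.13 (SE 0.40, limma adjusted p = 0.0182).

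Cyclin D2, encoded by Ccnd2, was at the floor of -2.78 on both control KD arrays, at -1.63 and -1.75 in Hdac6 KD, at 0.33 and 0.23 in Tip60 KD and at -0.52 and -0.58 in double KD. Its changes of 3.06 and 1.14 differed by -1.93, and with control KD at the floor the larger one depends on where the floor was set. Gap43, a protein of growing axons, was likewise at the floor in control KD and reached -0.06 and -0.29 in Tip60 KD and -0.07 and -0.29 in double KD. It rose by 1.68, and the call was lost without Tip60 KD B (limma adjusted p = 0.103).

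On the lower side, Gstm3, a glutathione transferase, stood at 2.01 and 1.86 in control KD, 0.06 and -0.16 in Hdac6 KD, -0.50 and -0.79 in Tip60 KD and -0.21 and -0.57 in double KD. Only control KD was high, and Hdac6 KD B lay within 0.05 of double KD A. The change was -2.57 with Hdac6 and -0.34 with Hdac6 reduced, and another probe gave a main effect of -0.55. Gdf15, a secreted stress factor, and Tnfrsf10b, a death receptor, both p53 targets, showed the same form, with -1.95 and -0.15 for Gdf15 and -1.90 and -0.15 for Tnfrsf10b. Their main effects of -1.46, -1.05 and -1.03 had limma adjusted p = 0.0723, 0.0987 and 0.0967. Without any 1 array of control KD or Tip60 KD these p-values lay between 0.201 and 0.281, and the calls were lost.

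Some genes were called although their sides overlapped. Kank4 stood at -1.09 and -1.32 in control KD but 0.21 and -0.08 in Hdac6 KD, against 0.66 and 0.42 in Tip60 KD and 0.52 and 0.18 in double KD, and its overlap was 0.03. Its call was lost without any 1 array of control KD or Tip60 KD (limma adjusted p = 0.186 to 0.197), with the lower floor and without the filter on dim probes. Slc5a11, a sodium-coupled transporter of sugars and inositol, overlapped by 0.15 and Snx24, a sorting nexin whose 2 slides lay far apart, by 0.29, with main effects of 1.00 and -0.92. At the edge of separation, the gaps of Sde2 and Imp4 on the higher side and of Tcf12 and Npepl1 on the lower side were all 0.00, with changes of 0.19, 0.75, -0.33 and -0.18. Just outside it, Marchf9, Ddx56, Bola2 and Adamts14 overlapped by amounts that round to 0.00 and had changes of 0.21, 0.42, -0.16 and -0.46. Separation by itself thus included changes as small as those of genes outside it.

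In 90 separating genes all 4 intact arrays were at the floor, and in 11 all 4 depleted arrays were, so that only the bound of their change was measured. Gm11757 reached -1.06 and -1.09 in Tip60 KD and -1.18 and -0.86 in double KD and was at least 3.33-fold higher. Sfrp5, a secreted Wnt inhibitor, was at least 3.10-fold higher, the collagen gene Col5a3 at least 2.68-fold and the G protein subunit Gng13 at least 1.90-fold. In the other direction Eda2r, a receptor induced by p53, stood at -1.72 and -1.89 in control KD and -2.22 and -2.22 in Hdac6 KD and was at the floor on every depleted array, at least 1.70-fold lower. Mal2 and Fam83g were at least 1.38-fold and 1.48-fold lower, and the call of Mal2 was lost without Tip60 KD A (limma adjusted p = 0.102).

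Genes whose promoters p53 is known to activate were called lower more often than higher. Of 30 tested, 13 were called lower and 2 higher, against 11.6% and 11.8% over all genes, and the median change was -0.40 against 0.03. Ccng1 led the list. Zmat3, a zinc finger RNA-binding protein, stood at 2.17 and 2.01 in control KD, 1.81 and 1.56 in Hdac6 KD, 0.87 and 0.55 in Tip60 KD and 1.25 and 0.99 in double KD. Its 4 depleted arrays lay below all 4 intact ones by 0.31, and its change was -0.97 (SE 0.17, limma adjusted p = 0.0156). Dcxr, a carbonyl reductase, fell by 0.76. The number called lower was 7 without control KD A, control KD B, Tip60 KD A or Tip60 KD B, each left out in turn, and 7 with the lower floor. The list's median change was -0.63 with Hdac6 present and -0.13 with Hdac6 reduced.

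Genes of G2 and mitosis were lower or not called. Of 34 tested, 18 were called lower (52.9%) and 0 higher, against 11.6% and 11.8% over all genes. The median change was -0.25. Cyclin B2, encoded by Ccnb2, which activates the kinase that starts mitosis, stood at 4.15 and 4.18 in control KD, 3.80 and 4.03 in Hdac6 KD, 3.52 and 3.46 in Tip60 KD and 3.5 and 3.70 in double KD. The sides were 0.10 apart and the change was -0.49 (SE 0.10, limma adjusted p = 0.0245). Birc5, the survivin subunit of the chromosomal passenger complex, changed by -0.53 and the spindle motor Kif11 by -0.50. Birc5 lost its call without Tip60 KD B (limma adjusted p = 0.108), and its 2 other probes gave -0.20 and -0.19. Kif11 lost it without control KD A, Tip60 KD A or Tip60 KD B (limma adjusted p = 0.104 to 0.106).

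The count of G2 and mitosis genes rested on the arrays with Hdac6 present. It was 7 without control KD A, 9 without control KD B, 6 without Tip60 KD A and 5 without Tip60 KD B, 12 without Hdac6 KD A, and 5 with the lower floor, while the median change stayed between -0.27 and -0.19 in all 22 alternatives. CCAAT was present in the window of 22 of the 28 members that had one, against 36.6% of all windows. Of 37 genes of S phase 4 were called higher (10.8%) and 7 lower (18.9%), against 11.8% and 11.6% over all genes. Among them the helicase subunit Mcm4 stood between 3.96 and 4.16 on the intact and between 3.38 and 3.63 on the depleted arrays and changed by -0.61 (limma adjusted p = 0.00836). Rrm2, a subunit of ribonucleotide reductase, fell by 0.58. For repair of double-strand breaks, 9 of 34 genes were called lower (26.5%) and 2 higher (5.88%), and the Ku subunit Xrcc6 fell by 0.84.

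**Figure D3:**
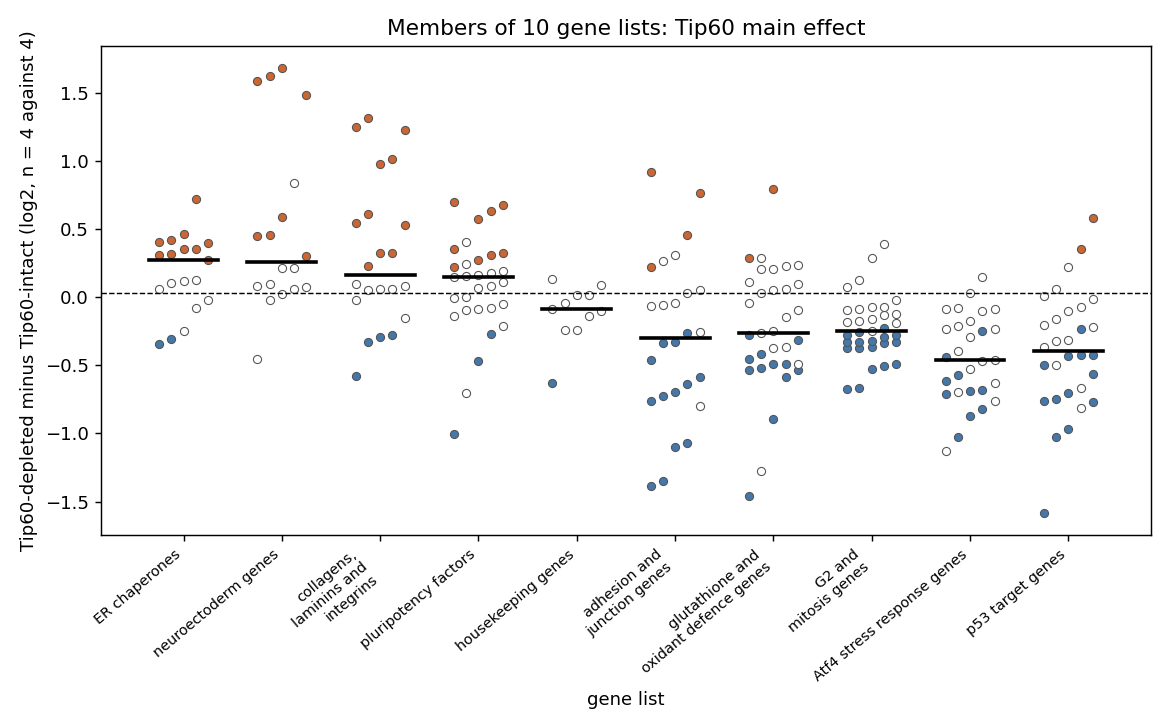
Tip60 main effect (log2, 4 arrays against 4) of every tested member of 10 gene lists. Each point is a gene, filled where it was called and white where it was not, the thick lines are list medians and the dashed line is the median of all genes, 0.03. Members of the p53, Atf4 and G2 and mitosis lists lie mostly below the dashed line, with medians of -0.40, -0.46 and -0.25, and ER chaperones mostly above it, with a median of 0.27.

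Targets of Atf4, the transcription factor that raises amino acid synthesis and tRNA charging under stress, were lower or not called. Of 29 tested, 10 were called lower (34.5%) and 0 higher, against 11.6% and 11.8% over all genes, with a median of -0.46. The list's median change was -0.74 with Hdac6 present and -0.10 with Hdac6 reduced. Phgdh, the entry enzyme of serine synthesis, stood at 3.01 and 2.98 in control KD, 3.30 and 3.30 in Hdac6 KD, 1.93 and 2.28 in Tip60 KD and 2.45 and 2.43 in double KD. All depleted arrays were below all intact ones, by 0.53, and its change was -0.89 with Hdac6 present and -0.86 with Hdac6 reduced, with -0.71 on another probe. Psat1, which acts next in the same pathway, changed by -0.82 (limma adjusted p = 0.0243), and the tRNA synthetases Nars and Sars by -0.71 and -0.69.

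The stress-induced chromatin protein Nupr1 stood at 2.93 and 2.96 in control KD, 1.84 and 1.71 in Hdac6 KD, 1.40 and 1.28 in Tip60 KD and 1.47 and 1.18 in double KD. Control KD was above all other groups, and the change was -1.61 with Hdac6 and -0.45 with Hdac6 reduced. Its call was lost without control KD A, Tip60 KD A or Tip60 KD B (limma adjusted p = 0.110 to 0.119). Pycr1, the last enzyme of proline synthesis, changed by -0.57 but overlapped by 0.05, with Hdac6 KD at -0.72 and -0.64. The number of Atf4 targets called lower was 6 without control KD A, Tip60 KD A or Tip60 KD B, each left out in turn.

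TGATGNAAT, an element to which Atf4 and C/EBP factors bind, was searched on both strands of the windows before gene starts. It was present in 57 of 11391 windows (0.50%) and in 4 of the 26 Atf4 targets that had one, of which Nupr1, Pycr1 and Aars were called lower and Gars was not called. The windows of Nupr1 (chr7:126625471-126625720, minus strand) and Pycr1 (chr11:120643749-120643998, minus strand) are shown as the bearers of this element, with the match in capitals, on the opposite strand in Nupr1.
Nupr1: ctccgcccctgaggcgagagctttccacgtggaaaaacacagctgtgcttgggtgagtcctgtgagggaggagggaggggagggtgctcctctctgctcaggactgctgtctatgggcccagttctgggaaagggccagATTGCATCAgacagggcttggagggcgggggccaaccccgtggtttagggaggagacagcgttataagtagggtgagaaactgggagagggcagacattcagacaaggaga
Pycr1: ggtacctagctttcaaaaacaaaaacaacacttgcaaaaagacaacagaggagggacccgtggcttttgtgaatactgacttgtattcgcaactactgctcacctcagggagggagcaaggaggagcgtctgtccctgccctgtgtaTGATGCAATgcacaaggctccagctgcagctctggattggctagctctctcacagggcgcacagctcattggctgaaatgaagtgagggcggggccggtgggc

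Chaperones of the endoplasmic reticulum (ER) moved the other way. Of 19 tested, 10 were called higher (52.6%) and 2 lower (10.5%), against 11.8% and 11.6% over all genes. On the higher side 9 separated, against 8.58% of all genes. The median change was 0.27 with little difference between Hdac6 present (0.24) and reduced (0.32). The disulfide isomerase Pdia3 stood at 2.85 and 2.83 in control KD, 3.56 and 3.47 in Hdac6 KD, 4.0 and 3.85 in Tip60 KD and 3.99 and 3.75 in double KD. The sides were 0.19 apart and the rise was 0.72 (limma adjusted p = 0.0287), lost as a call without Tip60 KD B (limma adjusted p = 0.108). Creld2, a secreted ER stress protein, stood between 2.22 and 2.32 on the intact and between 2.67 and 2.83 on the depleted arrays and rose by 0.47 (SE 0.07, limma adjusted p = 0.00937). Hspa5, the main Hsp70 chaperone of the ER, stood between 4.17 and 4.48 on the intact and between 4.49 and 4.78 on the depleted arrays.

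The change of Hspa5 was thus small, 0.31, and its call was lost without Tip60 KD B (limma adjusted p = 0.102). Syvn1, the ubiquitin ligase of ER-associated degradation, and Manf rose by 0.35 and 0.40. Calr, calreticulin, differed by 0.35 (limma adjusted p = 0.0578) and its call was lost without control KD B, Tip60 KD B or any 1 array with the Hdac6 hairpin (limma adjusted p = 0.10 to 0.159). The number called higher was 6 without Tip60 KD B, 8 without any 1 array of Hdac6 KD or double KD, and 6 with the lower floor.

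The ER stress element, CCAAT followed after 9 bases by CCACG, was searched on both strands as well. It was found in 18 of the 11391 windows (0.158%) and in 8 of the 17 ER chaperones that had one. Hspa5, Creld2, Syvn1 and Calr were called higher, and Hsp90b1, Dnajc3, Pdia6 and Canx were not called. Of the 10 called members with a window, 4 carried it (40%), against 47.1% of all 17. The element was thus no more frequent among called members. The windows of the 4 called genes are shown because they carry the whole element, in capitals. They lie at chr2:34771840-34772089 (Hspa5), chr15:88819396-88819645 (Creld2) and chr19:6046326-6046575 (Syvn1) on the plus strand and at chr8:84846932-84847181 (Calr) on the minus strand of GRCm38.p6, and in Creld2 and Calr the match is on the opposite strand.
Hspa5: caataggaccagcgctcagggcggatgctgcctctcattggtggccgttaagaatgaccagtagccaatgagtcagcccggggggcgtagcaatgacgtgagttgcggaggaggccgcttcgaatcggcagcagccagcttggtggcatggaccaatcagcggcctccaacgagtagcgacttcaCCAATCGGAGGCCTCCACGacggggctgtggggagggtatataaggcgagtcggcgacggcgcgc
Creld2: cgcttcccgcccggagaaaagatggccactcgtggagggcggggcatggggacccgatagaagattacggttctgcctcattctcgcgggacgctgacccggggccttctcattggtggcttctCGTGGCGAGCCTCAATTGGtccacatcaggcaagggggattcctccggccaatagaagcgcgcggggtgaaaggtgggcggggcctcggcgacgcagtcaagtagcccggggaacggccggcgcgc
Syvn1: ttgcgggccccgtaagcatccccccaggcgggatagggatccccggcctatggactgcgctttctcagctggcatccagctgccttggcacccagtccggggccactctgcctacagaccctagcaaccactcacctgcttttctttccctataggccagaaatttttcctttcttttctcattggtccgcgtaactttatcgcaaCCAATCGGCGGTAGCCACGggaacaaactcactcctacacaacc
Calr: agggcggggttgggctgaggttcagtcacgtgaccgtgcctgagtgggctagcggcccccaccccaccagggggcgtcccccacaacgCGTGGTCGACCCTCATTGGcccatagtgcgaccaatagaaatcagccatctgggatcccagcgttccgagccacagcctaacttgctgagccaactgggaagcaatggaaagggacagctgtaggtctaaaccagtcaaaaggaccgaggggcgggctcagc

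Genes of the neuroectoderm were higher or not called. Of 18 neuroectoderm genes tested, 8 were called higher (44.4%) and 0 lower, against 11.8% and 11.6% over all genes. The median change was 0.26. The neurofilament gene Nefl stood at -1.87 and -2.24 in control KD, -1.30 and -1.37 in Hdac6 KD, 0.07 and 0.09 in Tip60 KD and -0.23 and -0.22 in double KD. Every depleted array was at least 1.07 above every intact one, and the rise was 1.62 (SE 0.22, limma adjusted p = 0.00712). Tubb3, a tubulin of neurons, rose by 1.59 with a gap of 1.13, and Nefh by 1.49 with a gap of 0.48. The number called higher was 5 without Tip60 KD B and 4 without the filter on dim probes.

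Tppp3 and Mapt, cytoskeletal genes known from neurons, were higher as well. Tppp3, which promotes the assembly of microtubules, stood at -1.18 and -1.27 in control KD, -0.73 and -0.76 in Hdac6 KD, 1.22 and 1.30 in Tip60 KD and 0.66 and 0.51 in double KD. All depleted arrays were above all intact ones by 1.24, and the rise was 1.91. Mapt, the protein tau, rose by 0.87, with 0.94 where Hdac6 was present and 0.81 where it was reduced, and its 2 other probes gave 1.04 and 0.26. Of 30 tubulins and microtubule proteins, 7 were called higher (23.3%) and 4 lower (13.3%), against 11.8% and 11.6% over all genes. The median was 0.19.

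In the mesoderm list 4 of 12 genes were called higher (33.3%) and 0 lower, against 11.8% and 11.6% over all genes. Snai1, a repressor of epithelial genes, was at the floor on all intact arrays and reached -1.75 and -1.82 in Tip60 KD and -1.91 and -1.98 in double KD. Bmp4 rose by 0.42 and the homeobox gene Cdx1 by 0.51. Among 15 markers of the primed epiblast, 3 were called higher (20%) and 5 lower (33.3%). Nodal, the TGF-beta family ligand that maintains the epiblast, stood at 2.04 and 2.04 in control KD, 2.58 and 2.42 in Hdac6 KD, 3.52 and 3.36 in Tip60 KD and 3.18 and 3.06 in double KD. It rose by 1.01 (limma adjusted p = 0.0127) without overlap. Dnmt3a, a de novo DNA methyltransferase, stood between -0.69 and -0.29 on the intact and between -2.44 and -1.23 on the depleted arrays and changed by -1.29. Both directions thus occurred within this list.

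Trophectoderm genes also split, with 5 of 12 called higher (41.7%) and 3 lower (25%), against 11.8% and 11.6% over all genes. The transcription factor Tfap2c stood between 3.00 and 3.51 on the intact and between 1.95 and 2.47 on the depleted arrays and changed by -1.06 (SE 0.14, limma adjusted p = 0.00719). The homeobox gene Rhox6 changed by -1.09, while the keratin gene Krt8 rose by 0.83 and lost its call without control KD B or Tip60 KD B (limma adjusted p = 0.105 and 0.116). In the endoderm list 5 of 13 genes were called higher (38.5%) and 1 lower (7.69%). The 4 named among these, Col4a1, Col4a2, Sparc and Srgn, are matrix and secreted products rather than transcription factors, and the defining factors Gata4 and Sox17 did not pass (differences of -0.21 and 0.11, limma adjusted p = 0.462 and 0.394).

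**Figure D4:**
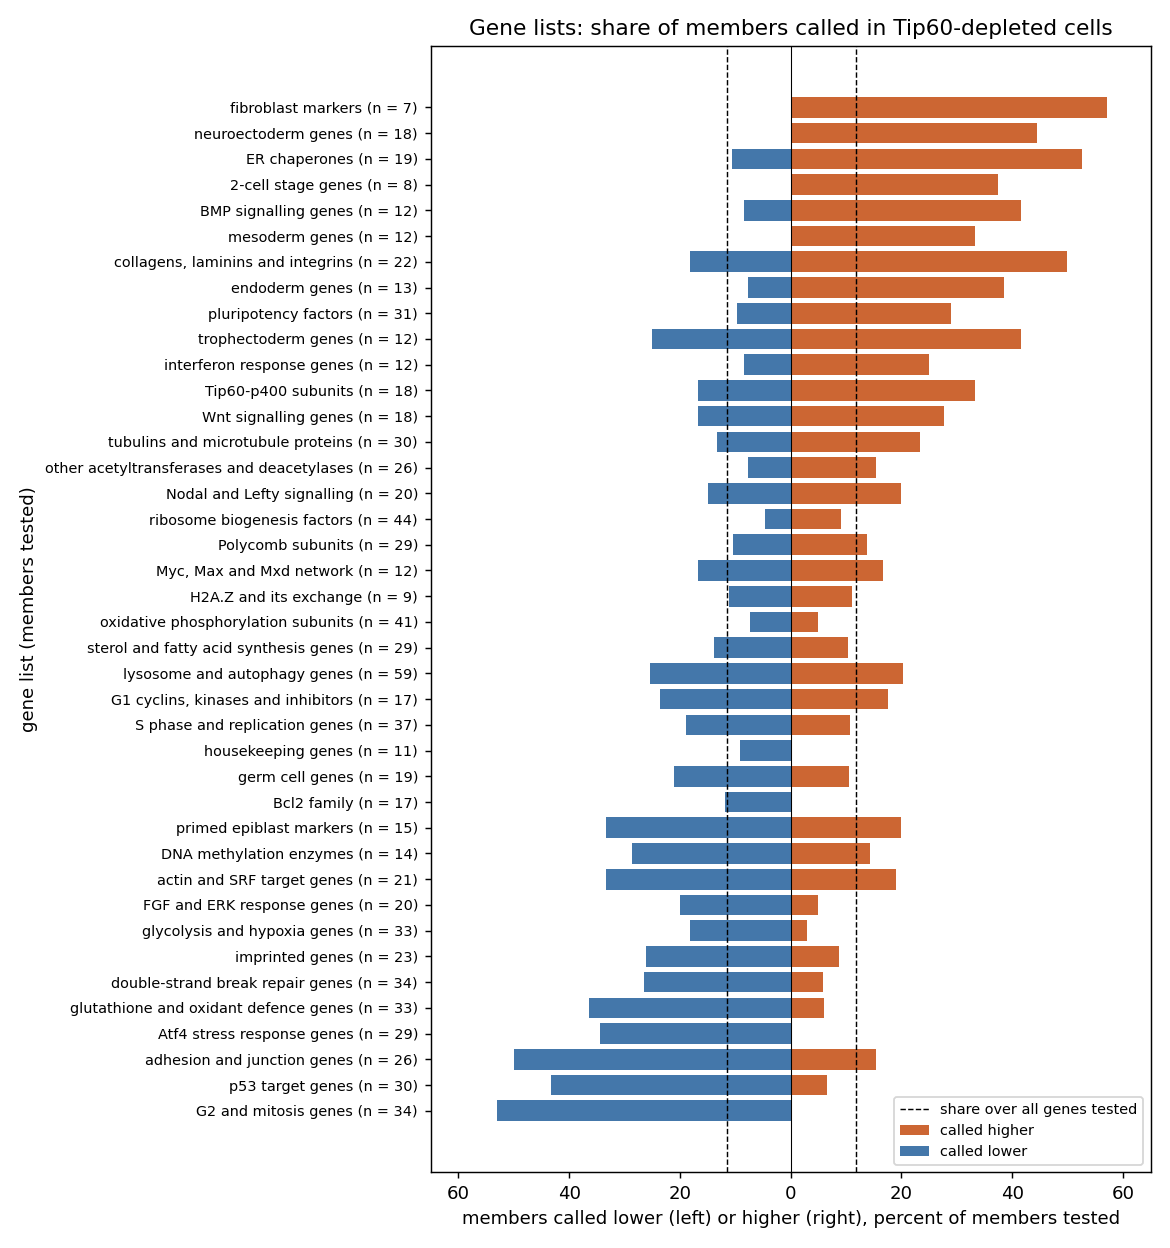
Share of the tested members of each gene list called higher (right) or lower (left) in Tip60-depleted cells, in percent, with the number of members tested beside each name. The dashed lines mark the shares over all genes tested, 11.8% higher and 11.6% lower. Bars for fibroblast markers, ER chaperones and the collagens, laminins and integrins reach farthest to the right and those for G2 and mitosis, adhesion and p53 target genes farthest to the left.

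Genes of the extracellular matrix and its receptors were more often called higher than lower, 11 (50%) and 4 (18.2%) of 22. Over all genes the shares were 11.8% and 11.6%. Col4a1, a chain of basement membrane collagen, stood at -1.20 and -1.14 in control KD, -0.77 and -0.75 in Hdac6 KD, 0.47 and 0.40 in Tip60 KD and 0.31 and 0.23 in double KD. The sides were 0.98 apart and the rise was 1.32 (SE 0.13, limma adjusted p = 0.00293). Its partner chain Col4a2 rose by 1.25, and the fibronectin receptor subunit Itga5 by 1.23, from between -0.86 and -0.20 to between 0.48 and 0.76. Lamb1, a laminin chain, changed by -0.57 and lay below on every depleted array. The number called lower was 1 without any 1 array of control KD or Tip60 KD.

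Adhesion and junction genes ran the other way, with 13 of 26 called lower (50%), 4 higher (15.4%) and a median of -0.30. Over all genes the shares were 11.6% and 11.8%. Cldn7, a claudin of tight junctions, stood at 1.68 and 1.72 in control KD, 1.08 and 1.20 in Hdac6 KD, -0.21 and -0.15 in Tip60 KD and 0.26 and 0.38 in double KD. The gap was 0.70 and the change was -1.35 (SE 0.22, limma adjusted p = 0.0118). Gja1, the gap junction protein connexin, changed by -1.07 with -1.36 where Hdac6 was present and -0.78 where it was reduced. Jam2, a junctional adhesion molecule, was higher instead, between 2.75 and 2.95 on the intact and between 3.69 and 3.89 on the depleted arrays, a rise of 0.92 that its 2 other probes gave as 1.14 and 1.31. The number called lower was 7 without Tip60 KD A.

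Of 33 genes of glutathione metabolism and oxidant defence, 12 were called lower (36.4%) and 2 higher (6.06%), against 11.6% and 11.8% over all genes. The median was -0.26. Gstm1 stood between 1.11 and 1.42 on the intact and between 0.50 and 0.89 on the depleted arrays and changed by -0.59 (SE 0.07, limma adjusted p = 0.00474). Members of the Gstm family are close in sequence, and their probes may not tell them apart. The peroxidase Prdx2 changed by -0.53. Gpx1, glutathione peroxidase 1, stood at 3.58 and 3.88 in control KD, 4.29 and 4.51 in Hdac6 KD, 5.00 and 5.07 in Tip60 KD and 4.59 and 4.79 in double KD. It thus ran against the list, with 0.80 (limma adjusted p = 0.0485), and its call was lost without any 1 array of control KD or Tip60 KD (limma adjusted p = 0.141 to 0.164). The number called lower was 7 without control KD B, Tip60 KD A or Tip60 KD B.

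Autophagy and lysosome genes were called in both directions, 12 higher (20.3%) and 15 lower (25.4%) of 59, against 11.8% and 11.6% over all genes. Gabarapl2 and Gabarapl1, homologues that coat the growing autophagosome, moved apart. Gabarapl2 stood at 2.72 and 2.78 in control KD, 2.58 and 2.59 in Hdac6 KD, 4.04 and 3.99 in Tip60 KD and 3.88 and 4.01 in double KD. The sides lay 1.1 apart and the rise was 1.31 (SE 0.07, limma adjusted p = 0.000357), with 1.26 where Hdac6 was present and 1.36 where it was reduced. Gabarapl1 stood between 1.25 and 1.80 on the intact and between 0.48 and 1.00 on the depleted arrays and changed by -0.79 (limma adjusted p = 0.0242). Among enzymes of the lysosome, Manba rose by 0.76 and Ctsa changed by -0.80.

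Of 33 glycolysis and hypoxia genes 6 were called lower (18.2%) and 1 higher (3.03%), and of 41 subunits of oxidative phosphorylation 3 (7.32%) and 2 (4.88%), against 11.6% and 11.8% over all genes. Pdk1, the kinase that limits entry of pyruvate into the citric acid cycle, stood between 3.46 and 3.77 on the intact and between 2.58 and 2.92 on the depleted arrays and changed by -0.89 (SE 0.07, limma adjusted p = 0.0016). Pfkfb4, which makes the activator of phosphofructokinase, rose by 0.92. Among 12 interferon response genes, 3 were called higher (25%) and 1 lower (8.33%). Oas1a, which senses double-stranded RNA, stood between 0.62 and 0.82 on the intact and between 1.55 and 1.93 on the depleted arrays and rose by 0.98. Bst2, which tethers budding virus, changed by -0.93.

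Pluripotency factors were called in both directions. Of 31 tested, 9 were called higher (29.0%) and 3 lower (9.68%), against 11.8% and 11.6% over all genes, with a median of 0.15. Dppa2 stood between 2.79 and 3.09 on the intact and between 3.49 and 3.71 on the depleted arrays and rose by 0.68 (limma adjusted p = 0.0106). Prdm14, a repressor that protects the naive state, rose by 0.70 and Zfp42 by 0.35. Pou5f1 stood at 3.07 and 3.06 in control KD, 3.58 and 3.47 in Hdac6 KD, 4.07 and 4.04 in Tip60 KD and 3.84 and 3.53 in double KD. Its sides overlapped, its rise was 0.99 with Hdac6 and 0.16 with Hdac6 reduced, and its call (limma adjusted p = 0.0787) was lost without any 1 array of control KD or Tip60 KD or without double KD A (limma adjusted p = 0.108 to 0.228). Sox2 changed by -0.27, and that call was lost without control KD A or either Tip60 KD array (limma adjusted p = 0.101 to 0.117). Lifr, a subunit of the LIF receptor, fell by 1.00 on the probe used, but its 2 other probes gave 0.39 and 0.85. Nr5a2 changed by -0.47 on the probe used, but its other probe gave 0.11. When probes were averaged, Lifr and Nr5a2 lost their calls and the number called lower was 1. The number called higher was 4 with the lower floor. With the interaction added to the model, 16 were called higher and 6 lower.

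The 8 defining markers of ESCs were all measured. Of these, 3 were called higher (Pou5f1, Zfp42 and Esrrb) and 1 lower (Sox2), against 11.8% and 11.6% over all genes. Nanog, Utf1, Dppa5a and Tdgf1 did not pass, with differences of 0.18, 0.15, -0.09 and -0.08. The summed signal of the 8, in units of the 75th percentile, was 286 to 299.97 on the intact and 296 to 316 on the depleted arrays, which overlapped. Such a sum is weighted to the brightest markers and can hide changes of dimmer ones. Markers of other cells were low. Of 8 defining markers of fibroblasts, the cells used as feeders, Col1a2, Dcn and Postn were not kept as above the floor, and the summed signal of the other 5, of which Lum lay at or near the floor, was 2.16 to 2.77 on the intact and 2.97 to 3.43 on the depleted arrays. Over the whole list of 12, 7 could be tested and 4 were called higher (57.1%, against 11.8% over all genes) with 0 lower. The sums were 2.69 to 3.14 on the intact and 3.68 to 3.99 on the depleted arrays. Col1a1 rose by 1.01, Thy1 by 0.48 and Mfap5, a microfibril protein, by 0.80. These markers moved with Tip60 status beside the matrix genes described above, and their part in that result was not tested. Of the defining markers of endoderm 2 of 6 and of trophectoderm 1 of 4 could be tested, and none of these 3 was called.

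Within the Tip60-p400 complex itself 6 of 18 subunits were called higher (33.3%) and 3 lower (16.7%), Kat5 among the latter. Over all genes the shares were 11.8% and 11.6%. Dmap1 stood between 1.22 and 1.27 on the intact and between 1.55 and 1.86 on the depleted arrays and rose by 0.44 (limma adjusted p = 0.0169). Epc1, which anchors the acetyltransferase module, rose by 0.42, and its other probe gave 0.29. With the mean of its probes the value was 0.025 and not called, although neither probe by itself was near that value. The other probe had a missing value, and where it was missing the mean rested on the remaining probe alone. The scaffold Trrap rose by 0.32, a call lost with the lower floor and without the replicate block (limma adjusted p = 0.101 and 0.139). The ATPase Ep400 had a difference of 0.02 (SE 0.10, limma adjusted p = 0.904). Of 11 housekeeping genes, 0 were called higher and 1 lower (9.09%). That gene was Actb, which changed by -0.63 (SE 0.07, limma adjusted p = 0.00393) and lay below on every depleted array, between 5.31 and 5.77 against between 5.88 and 6.51.

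An RT-qPCR panel of 12 genes, 9 of which could be tested here, held 3 called in each direction (33.3%). Over all genes 11.8% were called higher and 11.6% lower. Because the panel had been drawn from these very samples, its counts give no independent evidence of direction. Nefl, Jam2 and Sfrp5 were higher, and Gpsm2, Gstm3 and Mal2 lower. Lefty2, a Nodal antagonist, stood at 1.35 and 1.47 in control KD, 3.77 and 3.95 in Hdac6 KD, 3.57 and 3.55 in Tip60 KD and, with 1 double KD array missing, 3.91 in the other. Control KD was low and every other group was high, so that its change was 2.15 with Hdac6 and 0.00 with Hdac6 reduced, and its main effect did not pass (limma adjusted p = 0.105). Atp5g1 and Lamp2 had main effects of 0.95 and -0.65 that did not pass (limma adjusted p = 0.107 and 0.257). Their other probes gave -0.78, which separated on the lower side, for Atp5g1 and -0.13 for Lamp2.

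The windows of 250 bases before gene starts differed in composition between directions. A window was held for 1050 separating genes that were higher and 1067 that were lower. The median GC content was 58.4% in the former, 61.6% in the latter and 58.8% over all 11391 windows, and the median number of CpG dinucleotides was 14, 17 and 14. The Sp1-type element GGGCGG was present on either strand in 54.7%, 67.7% and 54.3% of windows, and the E-box CACGTG, to which Myc and related factors bind, in 6.57%, 11.4% and 7.94%. TATAAA ran the other way, with 8.76%, 4.03% and 8.19%. These shares are descriptions of the windows and were not tested. The directions also differed in brightness. With or without a window, the median log2 signal was -0.32 for separating genes that were higher, 0.84 for those that were lower and -0.35 over all genes. Whether the composition of the windows goes with signal was not tested.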

How the data were processed

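Cy3-labelled cRNA of 8 samples was read on 1-colour Agilent mouse arrays, and the authors extracted spots with Agilent Feature Extraction 10.7.1.1. The unit of the deposited spot values is intensity, and the processed signal used here had its background subtracted and no scaling across arrays. Values on the log2 scale, by a method not given in the sources used here, were deposited in the series matrix. Its columns ranked probes as the median signal did (Spearman rho 1 on every array), with medians of 8.19 to 8.20, and it served as an alternative.

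Processed signals were divided by the array's 75th percentile, raised to a common floor (0.145 of it, the highest over arrays of the lowest signal called well above background) and converted to log2. Of all values 8.86% lay at the floor. Outlier spots were set to missing, spots of a probe averaged, and probes above background and floor on at least 2 arrays kept. The brightest kept probe stood for a gene. RefSeq tables named 27317 of 39429 probes. Differences were tested with limma 3.58.1 in R 4.3.3 (lmFit and eBayes, 2-sided, Benjamini-Hochberg over all genes, called at an adjusted p under 0.1), with Tip60, Hdac6 and replicate letter as additive factors, leaving 4 residual and 2.63 prior degrees of freedom. The effects with and without Hdac6 and their difference came from a fit of the 4 groups with the letter as a block. The number of arrays limits the precision.

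The letters, which are also the slides, paired the arrays, since the differences between A and B correlated between all 6 pairs of groups (0.651 to 0.799). Without this block 3026 genes were called, all among the 4216. Fits were tested on simulated data. Members, lists and tests were chosen with earlier results of these data known. Named genes are the targeted genes, the widest gaps, the largest interactions, genes at the edge of separation, called genes that overlap, genes at the floor, the RT-qPCR panel, cell type markers and at most 6 called members per list. Of these, 2 genes are not reported here. Sequences are RefSeq windows of GRCm38.p6, held for 11391 of 18056 genes tested. Figures were drawn with matplotlib 3.10.9 (Python 3.11.15).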

Additional observations from a re-analysis of the deposited data

Results flagged for a closer look

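The 30 genes looked at were the targeted genes and those with the widest gaps or the largest interactions. In 60 groups of 4 arrays, 1 group had an array far from the others. Chance gives about 1 in 20 only for 4 arrays of the same kind. Each group of 4 here mixed different knockdowns, so that rate does not apply. The group with an array apart was the intact side of Zscan4a. There control KD A stood at -0.59 and the nearest array at -0.93, a gap of 0.896 of the range.

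In 18 of the 30 genes the Tip60 effect differed between cells with Hdac6 present and reduced, by the limma interaction. The 18 include the genes picked for their large interaction, whose calls follow from that choice. Over all genes tested 47.0% had an interaction call. The difference was 1.07 for Hdac6 itself. Among widest-gap increases it was -0.43 for Slc11a1, -0.53 for Spink1, -0.77 for Gm4312, 0.40 for Gm4340 and -1.0 for Gm4303. Among widest-gap decreases it was 0.44 for Ccng1, 0.93 for Fam162a, 0.78 for Ccdc160, 1.51 for Serinc5, 0.37 for Cldn6 and 0.29 for Gpsm2. The genes named for this difference gave 2.23 for Gstm3, 1.81 for Gdf15, 1.75 for Tnfrsf10b, -2.01 for Myc, -1.93 for Ccnd2 and -1.85 for Gap43.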

How the results depend on the processing

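Of 140 named genes that were called, 86 were called under all 22 alternatives that kept the threshold, and 54 lost the call at least once, mostly with a lower floor, without the filter on dim probes, or without an array of control KD or Tip60 KD. In 1, Lifr, the sign turned (0.077 with the mean of its probes). The 4216 genes called became 2496 with a lower floor, 2460 without the filter on dim probes, 9757 with the interaction added to the model, which takes unequal Tip60 effects out of the residual spread, and 207 with at least 2-fold change asked for, and 2001 to 3983 without 1 array. Without the replicate block 3026 were called. The block changed no direction among named genes, but each slide carried an array of every group. For a gene without missing values the estimated change is then the same with and without the block. Only its standard error can differ, so the unchanged directions are no test of robustness. The 8491 interaction calls became 5571 with a lower floor, 4159 without the replicate block and 779 at 2-fold. Separating genes numbered 2694 to 4191. Genes near the floor are limited by signal over background.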
